A study of Danio rerio with 7 samples.

Results

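Conjugation enzymes and antioxidant genes of the zebrafish embryonic cell line PAC2 were compared between stationary cells, collected 14 days after seeding, and exponential cells, collected on day 8. Members were the genes whose names fit a pattern. The names cover the phase II conjugation families, the aldehyde, quinone and epoxide enzymes, the glutathione, peroxiredoxin and thioredoxin genes, the Nrf and Keap1 regulators, and genes of heme breakdown, ferritin and the transferrin receptor. The gene name table holds 177 identifiers that match, of which 125 were among the 17570 genes of the count matrix, and these were split into 13 classes. All came through the expression filter of the authors before deposition, and the other matching identifiers were not analysed here. The day 14 group holds replicates 1, 2 and 4 (n = 3, because the third sample was lost while libraries were made) and the day 8 group holds replicates 1 to 4 (n = 4). Cells of both groups were wild type and untreated and came from the same line, and each replicate was a separate passage with its own starting day. The medium was renewed between seeding and the day 8 collection and not again, so that growth phase, time since seeding and age of the medium cannot be told apart.

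In phase II metabolism, a transferase attaches a polar group to a foreign compound, a hormone or a reactive by-product, which can then be excreted. UDP-glucuronosyltransferases (UGTs) use UDP-glucuronic acid, sulfotransferases use the sulfate donor PAPS, and glutathione S-transferases (GSTs) use glutathione. Glutathione and the thioredoxin system also supply the electrons with which peroxidases remove peroxides. Many of these genes, together with heme oxygenase 1 and ferritin, are known targets of Nrf2 (NFE2L2), a transcription factor that Keap1 holds at a low level until electrophiles modify it. Iron links the antioxidant genes to heme, since heme oxygenase releases the iron that ferritin stores, and free iron forms radicals from peroxides.

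Values are CPM, that is, estimated counts relative to the library size after TMM scaling (edgeR's cpm), and they are not divided by transcript length, so that levels of different genes are not compared. The libraries held 11252559 to 33414743 counts, 1 count was worth 0.0300 to 0.0773 CPM, and the members took 0.897% to 1.11% of the counts. The labels name an embryonic line and no adult cell type. Genes of the marker lists and of the later lists were looked up by exact name. They were counted as in the matrix only where the name was on a single identifier. A listed gene that was not found may be there under another name, so its absence does not show a lack of expression. Of 14 fibroblast markers, 9 were in the matrix, and 5 were called higher on day 14 (col1a2, pdgfra, vim, twist1a and lum, of which only lum was called in every alternative). vim had at most 0.874 CPM on day 14 and 0.326 CPM on day 8. It may have passed the expression filter only through day 14, so its call is a description. The summed level of the 9, mostly of the collagens col1a1a (not called) and col1a2, was 5648 to 7331 CPM on day 14, against 2964 to 5475 CPM on day 8. Differences of pdgfrb and twist1b were negative (-0.02 and -0.26, not called). Of 9 epithelial markers, 5 were in the matrix, and 2 of them were called lower. These were cdh1 (-1.26, in every alternative) and krt4 (-0.59, not called without day 14 replicate 2). The summed level of the 5, mostly of the simple keratins krt8 and krt18a.1 (neither called), was 4722 to 5363 CPM on day 14, against 4102 to 5272 CPM on day 8. Of 8 muscle markers, 4 were in the matrix, and ckma and myl1 were called higher, though not in every alternative (summed level 29.7 to 38.0 CPM on day 14, against at most 25.0 CPM on day 8). Differences of myod1 and myog were 0.38 and -0.05 (not called). Mean levels on day 14 and day 8 were 15.3 and 3.76 CPM for ckma and 14.1 and 14.6 CPM for myog. Only 2 of 12 hepatocyte markers were found by name in the matrix, at 1.89 to 2.77 CPM in sum on day 14 and 1.00 to 1.81 CPM on day 8. All 9 proliferation markers were called lower on day 14 (summed level 948 to 1265 CPM, against 2029 to 2416 CPM on day 8), and the part of this change in the values below was not tested. In bulk RNA, fewer cells of a type and less RNA per cell cannot be told apart.

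Stationary cells had more mRNA of several UGTs, of heme oxygenase 1 and of the peroxidase GPX7, and less of both transferrin receptors and of the glutathione synthesis subunit GCLM. With edgeR's quasi-likelihood test and p adjusted by Benjamini-Hochberg over the 17570 genes, 22 of the 125 members were called higher (17.6%, against 12.0% of all genes) and 12 lower on day 14 (9.60%, against 13.3% of all genes). Every day 14 library lay above every day 8 library for 25 members (17.1% of all genes did so) and below for 14 members (17.7% of all genes). The difference was positive for 82 of the 125 members and for 8820 of the 17570 genes. The counts by class and by list below, also those of positive differences, stand against these shares of all genes. The median log2 difference of the members was 0.16, against 0.0032 over all genes. Among replicates 1, 2 and 4, which exist for both days, the day 14 library was the higher of its pair in all 3 pairs for 61 members (48.8%, against 31.5% of all genes) and the lower in all 3 for 26 members (20.8%, against 31.6%). With the replicate number as a block, 41 members were called higher and 14 lower, which includes 22 members that were not called without it, and 1 of the 34 calls, that of hmox2b, was lost. The block raised the calls over all genes as well, to 3109 higher (17.7%) and 3322 lower (18.9%). Day 8 replicate 3 has no day 14 partner, so with the block it has a term of its own and does not inform the difference. A call with the block and a call without that library are therefore not separate results, and the part of pairing in the gained calls was not tested.

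The number of calls depended on scaling and on 3 libraries. Without scaling factors, which lowered the median of all genes from near zero to -0.17, 14 members were called higher and 16 lower (1218 and 3258 of all genes, against 2101 and 2344 with scaling). The number called higher was 12 without day 14 replicate 2, 12 without day 14 replicate 4 and 13 without day 8 replicate 2. Over all genes it was 1282, 1286 and 1432 in these fits, against 2101, so that calls were lost over all genes as well. Of the 34 calls, 15 held in each of the 18 alternatives, 9 higher and 6 lower. A further call, that of ugt1b1, held in the 16 alternatives that tested it.

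**Figure D1:**
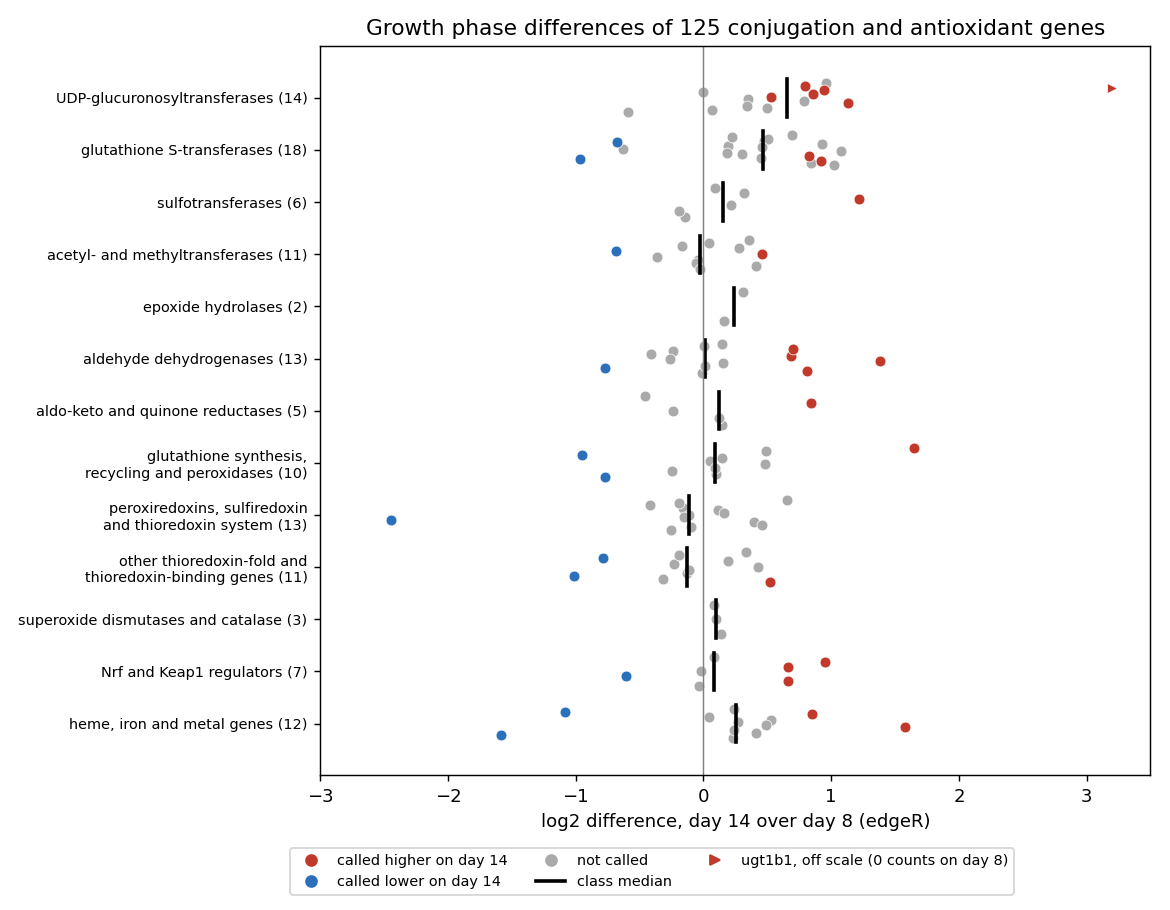
Log2 difference of each of the 125 members between day 14 and day 8 (x axis, edgeR), by class with the number of members in brackets. Each point is 1 gene, colored by its call, and the bar is the class median. UGTs had the highest median (0.66), and ugt1b1, with 0 counts in the 4 day 8 libraries, is drawn as an arrow at the edge of the scale.

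Of the 14 UGTs in the matrix, 6 were called higher and 0 lower on day 14 by edgeR (12.0% and 13.3% of all genes were). At an unadjusted p below 0.05 and with DESeq2, 0 were lower as well. A positive difference was found for 12, and the class median was 0.66 on the log2 scale. The highest among the well expressed ones was ugt5c2, of the ugt5 family described in zebrafish, with 58.6, 82.7 and 85.1 CPM in day 14 replicates 1, 2 and 4, against 29.0, 29.5, 36.4 and 42.6 CPM in day 8 replicates 1 to 4. The lowest day 14 library thus lay above the highest of day 8, and the mean was 75.5 ± 14.6 CPM (n = 3, SD) on day 14 and 34.4 ± 6.41 CPM (n = 4, SD) on day 8. The log2 difference was 1.13 (standard error 0.19, 2.19-fold, edgeR adjusted p = 0.00115). Its neighbor in name ugt5c1 had 12.1, 14.7 and 14.6 CPM on day 14, against 8.50, 9.97, 10.5 and 9.12 CPM on day 8 (log2 difference 0.53, edgeR adjusted p = 0.0342). For ugt5c3, 79.4, 101 and 103 CPM on day 14 stood against 71.3, 70.7, 68.4 and 85.8 CPM on day 8, and the difference of 0.35 was not called (adjusted p = 0.114, with the replicate block 0.0489). The 3 ugt5c genes therefore had positive differences of unequal size.

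Of the 4 ugt5b genes, 3 were called higher. ugt5b1 had 5.64, 7.11 and 5.80 CPM on day 14, against 2.47, 2.03, 3.42 and 4.86 CPM on day 8 (log2 difference 0.94, edgeR adjusted p = 0.0284). ugt5b2 had 10.7, 15.2 and 18.2 CPM on day 14, against 6.88, 7.06, 9.79 and 10.0 CPM on day 8 (log2 difference 0.79, adjusted p = 0.0193). The values of ugt5b4 were below 5 CPM in all libraries (log2 difference 0.86, adjusted p = 0.0345), and ugt5b3 was not called (0.06, adjusted p = 0.908). No day 8 library reached a day 14 library in any of the 3 called ugt5b genes. The ugt1 family gene ugt1b1, named after its values were seen because it is below the level used for naming genes, had 17, 10 and 24 counts in day 14 replicates 1, 2 and 4 and 0 counts in all 4 day 8 libraries. Taken against a floor of 3 counts over the day 8 group, it was at least 20.1-fold higher on day 14. It can have passed the expression filter only through the day 14 libraries and so had to differ, and its call, 1 of the 6, is given as a description. The ugt2 genes ugt2a4, ugt2a5, ugt2a7 and ugt2b1, ugt5f1 and UGT8 were not called, with differences from -0.59 to 0.96. UGT8, which had the lowest of these, is in the class by its name and is no glucuronosyltransferase. As the genes of these families are similar to each other and pseudo-alignment divides ambiguous reads among them, values of single UGTs are uncertain.

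The call of ugt5c2 held in every alternative and that of ugt1b1 in the 16 that tested it. Each of the other 4 was lost when any 1 of several libraries was left out. The call of ugt5c1 was lost without scaling factors (adjusted p = 0.131), without day 14 replicate 2 (0.117) or 4 (0.114) and without day 8 replicate 1 (0.0621), 2 (0.0749) or 4 (0.0776). That of ugt5b1 was lost without scaling factors (0.0606), without day 14 replicate 1 (0.0503), 2 (0.110) or 4 (0.0699) and without day 8 replicate 2 (0.0769). For ugt5b2 the adjusted p was 0.0672 without day 14 replicate 2, 0.108 without day 14 replicate 4 and 0.0594 without day 8 replicate 2. For ugt5b4 it was 0.0844 without scaling factors, 0.0981, 0.0824 and 0.0892 without day 14 replicates 1, 2 and 4, and 0.0508 and 0.106 without day 8 replicates 1 and 2.

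Most GSTs had a positive difference, but few were called. Of 18 GSTs, 15 had a positive difference (class median 0.46), 2 were called higher and 2 lower (12.0% and 13.3% of all genes were). One of the 3 identifiers named GSTM3, ENSDARG00000042533 of the mu class, had 93.4, 130 and 137 CPM in day 14 replicates 1, 2 and 4, against 47.9, 54.3, 73.6 and 78.1 CPM in day 8 replicates 1 to 4. It rose 1.89-fold without overlap of the days (log2 difference 0.92, standard error 0.20, edgeR adjusted p = 0.00550). gstt2, of the theta class, had 23.4, 28.0 and 25.6 CPM on day 14, against 14.1, 14.0, 12.7 and 17.1 CPM on day 8, again without overlap (log2 difference 0.82, standard error 0.16, adjusted p = 0.00279). Both calls held in every alternative. MGST3, a membrane-bound enzyme of glutathione and leukotriene metabolism, had 23.7, 25.5 and 31.3 CPM on day 14, against 27.9, 37.5, 59.5 and 45.9 CPM on day 8 (log2 difference -0.68, adjusted p = 0.0473). Its days overlapped, and the call was lost without any 1 of 6 libraries (adjusted p = 0.142, 0.151 and 0.0713 without day 14 replicates 1, 2 and 4, and 0.0597, 0.0998 and 0.0960 without day 8 replicates 2, 3 and 4). It was also lost with upper quartile scaling (0.0696), among genes above 5 CPM (0.0565), without robust estimation (0.0550) and with limma (0.0634 and 0.0663). GSTCD, named although under 5 CPM because it is the other GST name called lower, shares a C-terminal domain with GSTs. It had 1.68, 1.46 and 1.81 CPM on day 14, against 2.47, 3.51, 3.26 and 3.58 CPM on day 8 (log2 difference -0.96, adjusted p = 0.0180), and this call was lost without day 14 replicate 1 (0.0523) or 2 (0.0701) and without day 8 replicate 2 (0.0591).

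The GST values differed widely among replicates of the same day. In each gene given in this paragraph replicate 1 was the lowest on both days. Replicate 2 did not keep its place, since for GSTZ1 and gsto2 it lay above the day 14 mean and below the day 8 mean. gstp1.2, of the pi class, had 185, 295 and 358 CPM in day 14 replicates 1, 2 and 4, against 79.4, 88.2, 198 and 185 CPM in day 8 replicates 1 to 4. Replicate 1 was the lowest on either day, so that the days overlapped although the day 14 library was 2.33, 3.35 and 1.94 times its day 8 partner in replicates 1, 2 and 4. The difference of 1.02 was not called without the block (standard error 0.37, edgeR adjusted p = 0.0740) and was called with it (1.30, adjusted p = 2.06e-05). GSTZ1, which also acts in tyrosine breakdown as maleylacetoacetate isomerase, had 19.4, 37.6 and 38.6 CPM on day 14, against 7.65, 12.0, 22.5 and 17.9 CPM on day 8. The ratios within pairs were 2.53, 3.13 and 2.16 (log2 difference 1.08, adjusted p = 0.0550; with the block 1.36, adjusted p = 6.60e-06). gstt1a, of the theta class, had 10.0, 18.5 and 27.2 CPM on day 14, against 5.02, 7.98, 12.3 and 13.3 CPM on day 8 (log2 difference 0.93, adjusted p = 0.111; with the block 1.09, adjusted p = 5.31e-05). For gsto2, of the omega class that can reduce dehydroascorbate, 206, 339 and 386 CPM on day 14 stood against 126, 148, 311 and 288 CPM on day 8 (log2 difference 0.51, adjusted p = 0.314; with the block 0.78, adjusted p = 7.28e-04). In all 3 pairs the day 14 library was the higher one for 13 of the 18 GSTs (72.2%, against 31.5% of all genes). With the block 9 GSTs were called higher and 2 lower (17.7% and 18.9% of all genes were), with a class median of 0.65.

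Without the block, some of these genes were called in other settings. gstp1.2 was called in 8 of 18 alternatives, which were the block and those without day 14 replicate 1 (adjusted p = 0.0438), without scaling factors (0.0477), among genes above 5 CPM (0.0289), without robust estimation (0.0461), with DESeq2 (0.00805) and with limma (0.0318 and 0.0345). GSTZ1 was called in 12 of 18 alternatives, among them the block and those without day 14 replicate 1 (0.0175) or day 8 replicate 3 (0.0285). gstt1a was called without day 14 replicate 1 (0.0231) and with DESeq2 (0.0328), while gsto2 was called in no other alternative. Members of the mu class and the microsomal GSTs are similar copies, and their values are uncertain for the reason given for the UGTs.

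**Figure D2:**
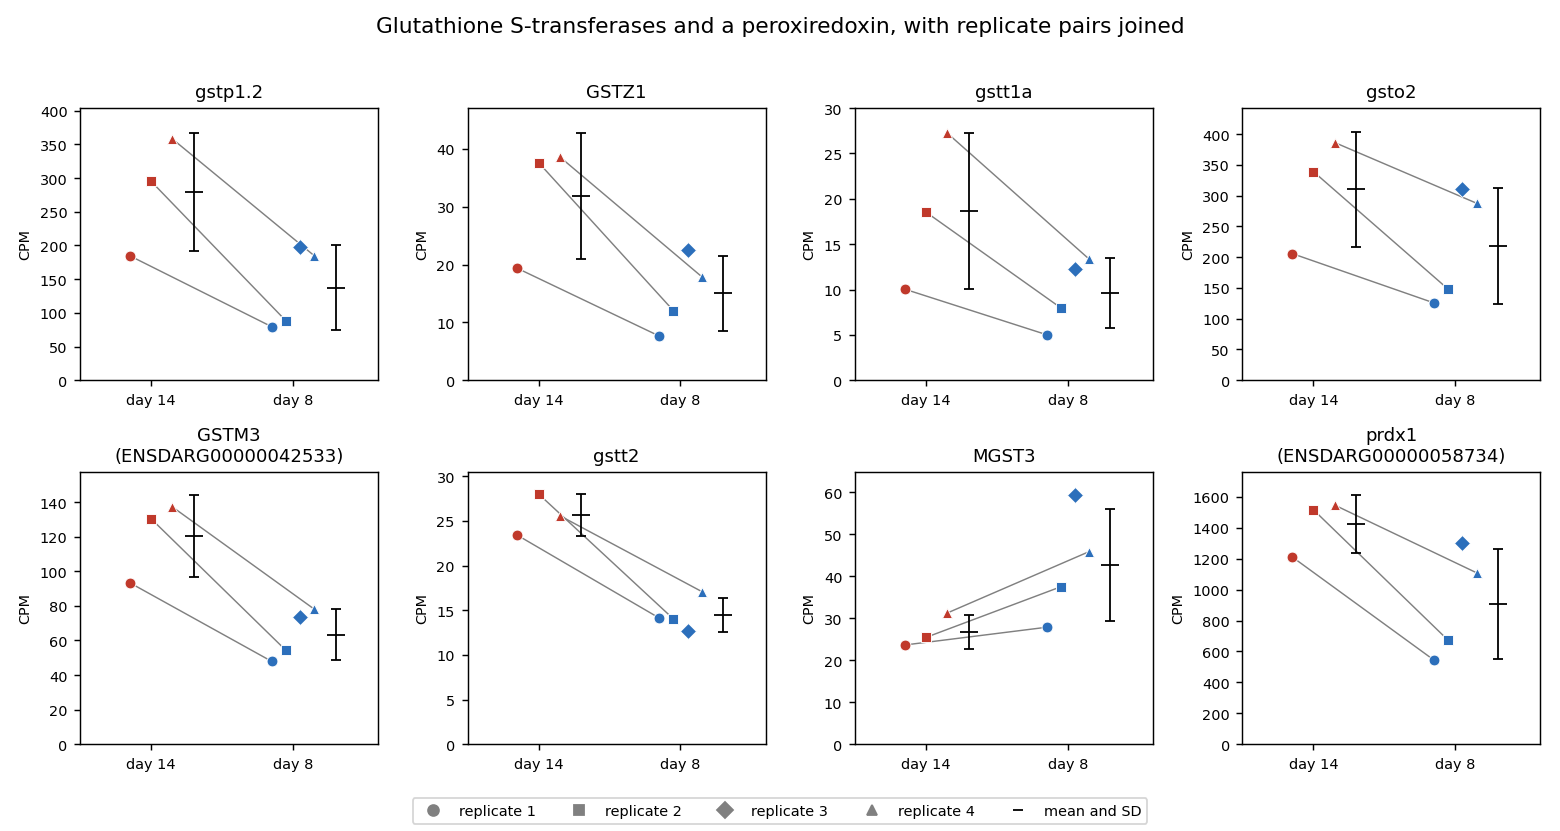
CPM (y axis, from 0) of 7 GSTs and of prdx1 (ENSDARG00000058734) in each day 14 library (left) and day 8 library (right). Marker shapes give the replicate, lines join replicates 1, 2 and 4 of the 2 days, and bars give mean and SD. For gstp1.2, GSTZ1, gstt1a, gsto2 and prdx1 the days overlap while every line falls towards day 8. MGST3 runs the other way.

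Sulfotransferases gave 1 call among 6 members. sult3st1 had 8.54, 8.97 and 13.0 CPM in day 14 replicates 1, 2 and 4, against 5.48, 3.21, 4.68 and 4.22 CPM in day 8 replicates 1 to 4. The means of 10.2 ± 2.45 CPM (n = 3, SD) and 4.40 ± 0.947 CPM (n = 4, SD) gave a log2 difference of 1.22 (standard error 0.23, 2.33-fold, edgeR adjusted p = 0.00258), a call that held in every alternative. The most abundant by counts, sult6b1, had 78.2, 80.2 and 77.4 CPM on day 14, against 49.6, 53.4, 101 and 66.4 CPM on day 8. It overlapped only through day 8 replicate 3, and the difference of 0.22 (adjusted p = 0.509) was called with the block (0.49, adjusted p = 0.00576) and without that library (adjusted p = 0.0329). In neither of these fits does that library inform the difference. sult1st1, sult1st2, sult2st1 and sult2st3 were not called, with differences from -0.19 to 0.32. PAPS, the sulfate donor, is made by PAPS synthases, and papss1 fell to 12.5, 11.0 and 9.36 CPM on day 14, against 23.3, 27.9, 20.9 and 24.5 CPM on day 8 (log2 difference -1.13, 2.20-fold lower, adjusted p = 7.36e-04). The transporter slc35b2, which carries PAPS into the Golgi, was also called lower (-0.47, adjusted p = 0.0460), though not without day 14 replicate 2 (0.174) or 4 (0.139), without day 8 replicate 2 (0.141) or 4 (0.0953), with upper quartile scaling (0.0834) or among genes above 5 CPM (0.0541). ugdh, which makes UDP-glucuronic acid for the UGTs, had a difference of 0.50 (adjusted p = 0.0649) that was called with the block (0.00933) and without day 14 replicate 1 (0.0366) or day 8 replicate 4 (0.0265). It was also called with upper quartile scaling (0.0385), among genes above 5 CPM (0.0415) and with DESeq2 (0.0470). Of 15 genes listed for the supply of these donors, 7 were in the matrix, 0 were called higher by edgeR (1 at an unadjusted p below 0.05 and 1 with DESeq2) and 2 lower, with a median of 0.0055.

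Among the 11 genes with acetyltransferase and methyltransferase names, the class median was -0.03 and NAT10 was called lower. NAT10 fell to 261, 237 and 233 CPM on day 14, against 419, 434, 375 and 342 CPM on day 8 (log2 difference -0.69, standard error 0.16, edgeR adjusted p = 0.00722). Despite its name NAT10 acetylates cytidines of ribosomal and transfer RNA and is no enzyme of drug conjugation. Its call held in every alternative. nat8, named for an N-acetyltransferase of cysteine conjugates, had no overlap between the days but was not called (0.41, adjusted p = 0.0558). It was called with the block (0.36, adjusted p = 0.0351) and without day 8 replicate 1 (0.0326). Upper quartile scaling (0.0333), the filters at 1 CPM (0.0485) and 5 CPM (0.0327) and DESeq2 (0.0297) gave a call as well. The thiopurine methyltransferases tpmt.1 and tpmt.2 had differences of -0.06 and -0.05. Neither epoxide hydrolase was called by edgeR or DESeq2, and 1 had an unadjusted p below 0.05. EPHX2, the soluble enzyme, had 41.9, 45.5 and 49.7 CPM on day 14, all above the 34.2, 38.2, 36.1 and 38.9 CPM of day 8 (log2 difference 0.31, adjusted p = 0.127). EPHX1, the microsomal enzyme, had a difference of 0.16.

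Aldehyde dehydrogenases moved in both directions, with 4 of 13 called higher and 1 lower (12.0% and 13.3% of all genes were) and a class median of 0.0083. ALDH9A1, which oxidizes an aminoaldehyde on the way to carnitine, had 57.9, 66.0 and 61.7 CPM in day 14 replicates 1, 2 and 4, against 23.6, 21.7, 24.1 and 25.6 CPM in day 8 replicates 1 to 4. Its replicates were close together, at 61.9 ± 4.04 CPM (n = 3, SD) on day 14 and 23.7 ± 1.61 CPM (n = 4, SD) on day 8 (log2 difference 1.38, standard error 0.14, 2.61-fold, edgeR adjusted p = 9.10e-05). The similarly named aldh9a1b was not called (-0.26, adjusted p = 0.224). ALDH2, the mitochondrial acetaldehyde dehydrogenase, had 26.6, 32.8 and 29.8 CPM on day 14, against 16.0, 15.3, 25.1 and 17.0 CPM on day 8 (log2 difference 0.70, adjusted p = 0.0177). aldh3a2b, of the fatty aldehyde dehydrogenases, had 10.0, 7.40 and 10.9 CPM on day 14, against 5.18, 5.80, 4.08 and 6.44 CPM on day 8 (log2 difference 0.81, adjusted p = 0.0154). ALDH5A1, the succinic semialdehyde dehydrogenase of GABA breakdown, had 7.64, 8.28 and 11.0 CPM on day 14, against 4.33, 5.76, 5.87 and 6.14 CPM on day 8 (log2 difference 0.69, adjusted p = 0.0269). All 4 rose without overlap. ALDH4A1, which completes proline breakdown in mitochondria, fell to 19.6, 14.5 and 16.5 CPM on day 14, against 26.9, 33.3, 27.2 and 28.2 CPM on day 8 (log2 difference -0.77, standard error 0.16, adjusted p = 0.00480). ALDH18A1, which acts in the opposite direction in proline synthesis, had a difference of 0.01. ALDH7A1, the most abundant of the class by counts, was not called (-0.24, adjusted p = 0.242). Every day 14 library of ALDH7A1 lay below every day 8 library, and it was called lower without scaling factors (0.0470).

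The calls of ALDH9A1 and ALDH4A1 held in every alternative. That of ALDH2 was lost without day 14 replicate 2 (adjusted p = 0.0809) or 4 (0.0581) and day 8 replicate 2 (0.0586), that of aldh3a2b without scaling factors (0.0821) and day 14 replicate 1 (0.0516) or 4 (0.0768), and that of ALDH5A1 without scaling factors (0.0838), day 14 replicate 2 (0.0558) or 4 (0.136) and day 8 replicate 2 (0.0585). Among the 5 aldo-keto and quinone reductases, AKR1B1 (ENSDARG00000045598), named for aldose reductase, was the only one called. It had 40.9, 55.7 and 51.0 CPM on day 14, against 21.8, 28.1, 30.9 and 28.9 CPM on day 8 (log2 difference 0.84, standard error 0.17, 1.79-fold, edgeR adjusted p = 0.00353), in every alternative. The other identifier of that name, ENSDARG00000006215, had a difference of -0.45 (adjusted p = 0.248). AKR7L, the most abundant of these reductases by counts, was not called (-0.24, adjusted p = 0.261). NQO1, the quinone reductase used widely as a readout of Nrf2, had 11.1, 11.5 and 15.7 CPM on day 14 and 8.27, 10.9, 14.9 and 11.9 CPM on day 8. These values overlapped, and the difference of 0.14 was within the spread of the replicates (standard error 0.21, adjusted p = 0.663).

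Within glutathione metabolism, the 2 subunits of glutamate cysteine ligase, the first enzyme of glutathione synthesis, gave 1 call. GCLM, the modifier subunit that raises the efficiency of the enzyme, fell to 50.6, 46.0 and 47.0 CPM in day 14 replicates 1, 2 and 4, against 66.0, 84.7, 88.3 and 86.9 CPM in day 8 replicates 1 to 4. The means were 47.9 ± 2.45 CPM (n = 3, SD) on day 14 and 81.5 ± 10.4 CPM (n = 4, SD) on day 8 (log2 difference -0.77, standard error 0.15, 1.70-fold lower, edgeR adjusted p = 0.00331), in every alternative. GCLC, the catalytic subunit, had 89.0, 73.3 and 83.2 CPM on day 14 and 67.0, 74.5, 103 and 71.2 CPM on day 8, values that overlapped (log2 difference 0.05, standard error 0.17, adjusted p = 0.849). The difference between the changes of the 2 subunits was not tested. GSS, which adds glycine to complete glutathione, had a difference of 0.10 (adjusted p = 0.786), and GSR, which reduces oxidized glutathione, had one of 0.15 (adjusted p = 0.554).

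The glutathione peroxidases were called in opposite directions. GPX7, a peroxidase of the endoplasmic reticulum that passes oxidizing equivalents to protein disulfide isomerases, had 61.0, 92.6 and 97.3 CPM on day 14, against 18.3, 21.5, 32.7 and 33.9 CPM on day 8. Its lowest day 14 library was above every day 8 library, and the log2 difference of 1.65 (standard error 0.23, 3.14-fold, edgeR adjusted p = 5.62e-04) was the largest among members above 5 CPM, with a call in every alternative. GPX8, a related peroxidase of the same compartment, was not called (0.49, adjusted p = 0.0887), but was with the block (0.62, adjusted p = 8.89e-04), with upper quartile scaling (0.0486) and without day 8 replicate 3 (0.0331). gpx1b, one of the copies of the cytosolic peroxidase GPX1, fell to 17.3, 19.8 and 18.2 CPM on day 14, against 22.8, 29.4, 50.4 and 39.1 CPM on day 8 (log2 difference -0.95, standard error 0.24, adjusted p = 0.0115; without day 14 replicate 4 0.0516). Its copy gpx1a had a difference of 0.49 that was not called (adjusted p = 0.230). GPX4, which reduces lipid peroxides in membranes, had a difference of 0.09 (adjusted p = 0.791). Of 19 genes listed for cysteine and glutathione supply and breakdown, 14 were in the matrix, 2 were called higher and 1 lower (median -0.11). cbsb, a cystathionine beta-synthase that starts the route from homocysteine to cysteine, rose to 44.2, 42.0 and 48.7 CPM on day 14, against 29.6, 25.8, 31.6 and 28.1 CPM on day 8 (log2 difference 0.65, adjusted p = 0.00607). oplah, which recycles oxoproline from glutathione breakdown, was called higher (0.55, adjusted p = 0.0399), a call lost without scaling factors (0.237) and without any 1 of the libraries except day 8 replicate 1 (0.126, 0.102 and 0.0774 without day 14 replicates 1, 2 and 4; 0.105, 0.0556 and 0.0958 without day 8 replicates 2, 3 and 4). glrx3, a glutaredoxin of iron-sulfur handling, was called lower (-0.54, adjusted p = 0.0188; 0.0941 without day 14 replicate 4 and 0.0568 without day 8 replicate 2). The cystine importer slc7a11 was not called (-0.19, adjusted p = 0.677).

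**Figure D3:**
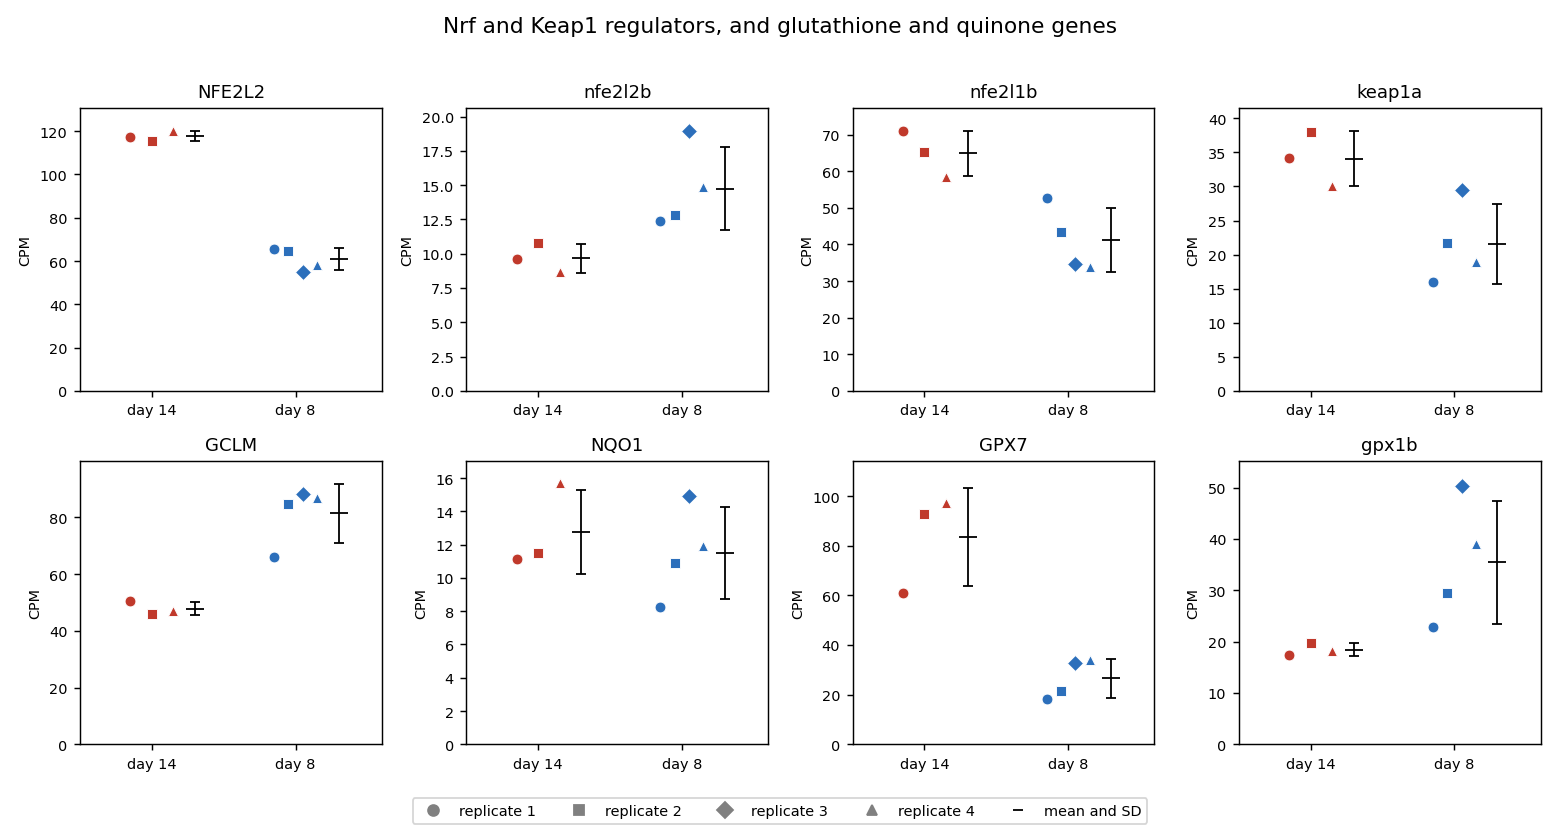
CPM (y axis, from 0) of 4 Nrf and Keap1 genes (top) and of GCLM, NQO1, GPX7 and gpx1b (bottom) in each day 14 library (left) and day 8 library (right), with mean and SD. NFE2L2 lies between 116 and 120 CPM on day 14, above the highest day 8 value of 65.7 CPM, while GCLM lies below all day 8 libraries and NQO1 overlaps.

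Peroxiredoxins and the thioredoxin system gave 1 call among 13 members, and superoxide dismutases and catalase 0 among 3 (0 also at an unadjusted p below 0.05 and with DESeq2). prdx1 (ENSDARG00000058734), an abundant peroxidase that thioredoxin recharges, had 1212, 1517 and 1546 CPM in day 14 replicates 1, 2 and 4 and 544, 672, 1301 and 1109 CPM in day 8 replicates 1 to 4. It was 2.23, 2.26 and 1.39 times as high as its day 8 partner in the 3 pairs, but day 8 replicate 3 lay above day 14 replicate 1 (log2 difference 0.65, standard error 0.28, edgeR adjusted p = 0.107; with the block 0.94, adjusted p = 2.42e-04; without day 8 replicate 3 adjusted p = 0.0216). PRDX1 (ENSDARG00000025350) and prdx5 were called only with the block (0.39, adjusted p = 0.0211, and 0.36, adjusted p = 0.0413). With scaling, all libraries and no block, the only call was TXNRD2 (ENSDARG00000094470), named here after its values were seen. This is 1 of 2 identifiers named for the mitochondrial thioredoxin reductase. It had 0.150, 0.233 and 0.266 CPM on day 14, against 1.62, 1.40, 0.272 and 1.36 CPM on day 8 (log2 difference -2.44, standard error 0.62, adjusted p = 0.0126; without day 14 replicate 1 0.0543). These are few counts, and day 8 replicate 3 was close to the day 14 libraries. The gene may have passed the expression filter only through the other day 8 libraries, so its call is given as a description. SRXN1, which repairs overoxidized peroxiredoxins and is a known Nrf2 target, stood at 0.45 (adjusted p = 0.234), thioredoxin (TXN) at -0.16 and PRDX3, the mitochondrial peroxiredoxin, at -0.42 (adjusted p = 0.137; without scaling factors 0.0187), none of them called.

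SOD1, the cytosolic superoxide dismutase, had 165, 211 and 229 CPM on day 14 and 126, 141, 267 and 199 CPM on day 8 (log2 difference 0.14, edgeR adjusted p = 0.710; with the block 0.39, adjusted p = 0.0155). SOD2, the mitochondrial enzyme, had 122, 169 and 223 CPM on day 14 and 101, 134, 212 and 199 CPM on day 8 (log2 difference 0.08, adjusted p = 0.852). CAT, the catalase of peroxisomes, had 68.8, 72.3 and 65.1 CPM on day 14 and 61.8, 59.7, 70.2 and 65.6 CPM on day 8 (log2 difference 0.10, adjusted p = 0.651). For all 3 the days overlapped, and their signs turn negative without scaling factors.

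Other thioredoxin-fold genes were called in both directions, 1 of 11 higher and 2 lower. TXNL1, a thioredoxin-like protein that binds the proteasome, fell to 96.7, 92.7 and 81.9 CPM on day 14, against 178, 172, 223 and 158 CPM on day 8 (log2 difference -1.01, standard error 0.16, edgeR adjusted p = 9.79e-04), in every alternative. TXNDC5, a protein disulfide isomerase of the endoplasmic reticulum, had 251, 260 and 264 CPM on day 14, against 186, 194, 178 and 163 CPM on day 8 (log2 difference 0.52, adjusted p = 0.0166; 0.120 without scaling factors, 0.0639 and 0.0585 without day 14 replicates 2 and 4). txndc11 had 9.35, 6.06 and 4.58 CPM on day 14, against 10.4, 11.8, 12.9 and 11.4 CPM on day 8 (log2 difference -0.79, adjusted p = 0.0260; 0.102 and 0.112 without day 14 replicates 2 and 4, 0.0560 without day 8 replicate 2). In each of the 3 called genes the days did not overlap. TXNIP, which binds and inhibits thioredoxin, had 163, 327 and 289 CPM on day 14 and 293, 350, 267 and 384 CPM on day 8. It was not called (-0.32, adjusted p = 0.340), but was with the block (-0.45, adjusted p = 0.0202). Thioredoxin and glutathione reductases draw on NADPH, and of 15 genes listed for its supply 11 were in the matrix, 2 called higher and 3 lower (median -0.07). Those called higher were pgls (0.79, adjusted p = 0.00559) and idh1 (0.68, adjusted p = 0.00733). NAD kinase (nadk, -1.09, adjusted p = 0.00332) fell, as did idh2 (-0.59, adjusted p = 0.0136; 0.0580 and 0.0715 without day 14 replicates 2 and 4). The transhydrogenase nnt fell as well (-0.79, adjusted p = 0.0180; 0.0942 and 0.0961 without day 14 replicates 2 and 4, 0.0534 without day 8 replicate 2).

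Among the 7 Nrf and Keap1 regulators, 3 were called higher and 1 lower on day 14 (12.0% and 13.3% of all genes were). NFE2L2 had 117, 116 and 120 CPM in day 14 replicates 1, 2 and 4, against 65.7, 64.8, 54.7 and 58.4 CPM in day 8 replicates 1 to 4. Replicates of a day were close together and the days far apart, with 118 ± 2.35 CPM (n = 3, SD) and 60.9 ± 5.27 CPM (n = 4, SD), a log2 difference of 0.95 (standard error 0.14, 1.93-fold, edgeR adjusted p = 5.81e-04) that was called in every alternative. The other zebrafish copy, nfe2l2b, described in zebrafish embryos as a negative regulator of several Nrf2-type genes, fell to 9.59, 10.8 and 8.67 CPM on day 14, against 12.4, 12.9, 19.0 and 14.8 CPM on day 8 (log2 difference -0.61, standard error 0.19, adjusted p = 0.0342). The ratio of the 2 copies, given as a description after both values were seen, was 12.2, 10.7 and 13.9 in the day 14 libraries, against 5.32, 5.04, 2.89 and 3.93 in the day 8 libraries. nfe2l1b, a copy of the related factor that controls proteasome genes, had 70.9, 65.3 and 58.5 CPM on day 14, against 52.6, 43.5, 34.8 and 33.8 CPM on day 8 (log2 difference 0.66, standard error 0.18, adjusted p = 0.0164). keap1a, an adaptor of the ubiquitin ligase that degrades Nrf2, had 34.2, 38.1 and 30.0 CPM on day 14, against 15.9, 21.7, 29.5 and 19.0 CPM on day 8 (log2 difference 0.66, standard error 0.20, adjusted p = 0.0292). The factor and its negative regulator thus both had more mRNA, although for keap1a day 8 replicate 3 came close to day 14 replicate 4. KEAP1, nfe2l3 and NFE2L1 were not called (0.09, -0.04 and -0.02).

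Of these calls only that of NFE2L2 held throughout. For nfe2l2b the adjusted p was 0.0878, 0.0613 and 0.136 without day 14 replicates 1, 2 and 4 and 0.0620 and 0.0665 without day 8 replicates 3 and 4. The call of nfe2l1b was lost without scaling factors (0.141) and without day 14 replicate 1 (0.0593) or 2 (0.0622), and that of keap1a without scaling factors (0.0611), day 14 replicate 1 (0.0665) or 2 (0.121) and day 8 replicate 2 (0.0640) or 4 (0.0756). Of 17 genes listed as co-regulators of Nrf2, 6 were in the matrix, 1 called higher and 1 lower. bach1a, a copy of the repressor that competes with Nrf2 at its target sites and is released by heme, rose to 27.9, 27.0 and 33.5 CPM on day 14, against 17.4, 15.7, 12.2 and 14.1 CPM on day 8 (log2 difference 0.99, standard error 0.17, edgeR adjusted p = 0.00129), in every alternative. mafk, a small Maf partner of both factors, had 2.10, 0.816 and 1.70 CPM on day 14 and 3.32, 4.69, 2.07 and 4.43 CPM on day 8. Its call (log2 difference -1.22, adjusted p = 0.0296) was lost without day 14 replicate 2 (0.114) or 4 (0.0818) and without day 8 replicate 2 (0.0850) or 4 (0.0740). Whether the NFE2L2 protein changed is not measured by these data.

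Genes of iron and heme were called in a split pattern, with tfr1b and tfr1a lower and HMOX1 and hmox2b higher on day 14. tfr1b, which takes up transferrin-bound iron, had 141, 87.0 and 102 CPM in day 14 replicates 1, 2 and 4, against 383, 372, 290 and 276 CPM in day 8 replicates 1 to 4, and was 3.00-fold lower on day 14 (edgeR adjusted p = 3.27e-04). tfr1a, the copy that zebrafish erythrocytes need, fell to 23.0, 13.3 and 24.0 CPM, against 51.2, 47.2, 34.8 and 38.1 CPM on day 8 (log2 difference -1.08, standard error 0.22, 2.12-fold lower, adjusted p = 0.00383). Neither receptor overlapped between the days, and both calls held in every alternative. HMOX1, which splits heme into biliverdin, carbon monoxide and iron, had 18.6, 33.9 and 28.7 CPM on day 14, against 6.49, 5.98, 12.2 and 11.4 CPM on day 8. Its means were 27.1 ± 7.76 CPM (n = 3, SD) on day 14 and 9.02 ± 3.24 CPM (n = 4, SD) on day 8 (log2 difference 1.58, 2.99-fold, standard error 0.28, adjusted p = 0.00191), in every alternative. hmox2b, a copy of the constitutive heme oxygenase, had 4.44, 3.09 and 4.89 CPM on day 14, against 2.78, 2.70, 1.85 and 1.92 CPM on day 8 (log2 difference 0.85, adjusted p = 0.0336). Its call was lost with the block (adjusted p = 0.0513), without scaling factors (0.129), without day 14 replicate 1 (0.104) or 4 (0.146) and without day 8 replicate 2 (0.0507), 3 (0.0552) or 4 (0.0840). HMOX2 was not called (0.24, adjusted p = 0.313).

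None of the 7 ferritin heavy chain genes was called with all libraries and no block, although all 7 differences were positive, FTH1 turning negative without scaling factors. Ferritin heavy chains form the shell that stores iron. fth1a had 682, 812 and 697 CPM on day 14 and 530, 582, 743 and 622 CPM on day 8 (log2 difference 0.24, standard error 0.18, edgeR adjusted p = 0.358; with the block 0.34, adjusted p = 0.0471). fthl27 had 358, 424 and 462 CPM on day 14 and 202, 241, 400 and 304 CPM on day 8 (log2 difference 0.53, standard error 0.22, adjusted p = 0.0971; with the block 0.75, adjusted p = 1.60e-04; without day 8 replicate 3 adjusted p = 0.0110). In both, day 8 replicate 3 lay within the day 14 range while the other day 8 libraries lay below it. For fthl28, day 8 replicate 3, at 17.9 CPM, lay above the highest day 14 library of 17.0 CPM (0.49, adjusted p = 0.195; with the block 0.82, adjusted p = 0.00116; without day 8 replicate 3 adjusted p = 0.00950). The fthl genes are close copies and their single values are uncertain.

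Of 26 further genes listed for iron uptake, sensing, release and heme, 19 were in the matrix, with a median of -0.22. Of these, 3 were called higher and 6 lower (12.0% and 13.3% of all genes were). The iron exporter slc40a1 (ferroportin) rose to 34.7, 36.5 and 25.4 CPM on day 14, against 4.02, 2.44, 4.08 and 5.76 CPM on day 8 (log2 difference 2.99, standard error 0.25, 7.92-fold, edgeR adjusted p = 4.05e-05). The metalloreductase steap4 rose as well, with 2.97, 5.83 and 3.51 CPM on day 14 and 0.232, 0.111, 0.217 and 0.682 CPM on day 8 (log2 difference 3.67, standard error 0.49, adjusted p = 3.81e-04). With at most 16 counts in a day 8 library, steap4 may have passed the expression filter only through the day 14 libraries. Its call is therefore given as a description. slc11a2, the importer that releases iron from endosomes, fell to 30.3, 25.9 and 21.6 CPM, against 48.3, 52.0, 49.8 and 41.3 CPM on day 8 (log2 difference -0.88, standard error 0.16, adjusted p = 0.00238). alas1, the first enzyme of heme synthesis, fell to 183, 92.7 and 86.6 CPM, against 435, 486, 478 and 303 CPM on day 8 (log2 difference -1.82, standard error 0.28, 3.52-fold lower, adjusted p = 7.48e-04). Each of these 4 genes separated the days and was called in every alternative that tested it, which were 17 for steap4 and 18 for the others.

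The remaining iron and heme calls were each lost when 1 library was left out, for most of them any of several libraries. fech, the last enzyme of heme synthesis, was lower (-1.26, edgeR adjusted p = 0.0193; 0.0809 and 0.0872 without day 14 replicates 2 and 4), and so were the importer slc39a14 (-0.95, 0.0153; 0.0647 without day 14 replicate 4) and the heme exporter flvcr1 (-0.66, 0.0233; 0.106 and 0.101 without day 14 replicates 2 and 4, 0.0787 without day 8 replicate 2). The iron chaperone pcbp2 was called lower (-0.43, 0.0391; 0.0685 with upper quartile scaling, 0.0857, 0.113 and 0.135 without day 14 replicates 1, 2 and 4, 0.133 without day 8 replicate 2). blvrb, named for a biliverdin reductase, was called higher (0.73, 0.0353), although its days overlapped. Its adjusted p was 0.139 and 0.109 without day 14 replicates 2 and 4. Without day 8 replicates 1, 2 and 4 it was 0.0695, 0.0952 and 0.0749. The similarly named blvra had every day 14 library below day 8 but was not called (-0.69, adjusted p = 0.0848). It was called lower without scaling factors (0.0421) and without day 8 replicate 1 (0.0454). The iron sensors ireb2 and aco1 and fbxl5, the ligase adaptor that removes ireb2, were not called (-0.08, 0.26 and 0.12). In every alternative, then, tfr1b, tfr1a, slc11a2 and alas1 were called lower and HMOX1 and slc40a1 higher in stationary cells. The call of steap4 is left out here because of its few day 8 counts. Iron itself was not measured in these data.

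**Figure D4:**
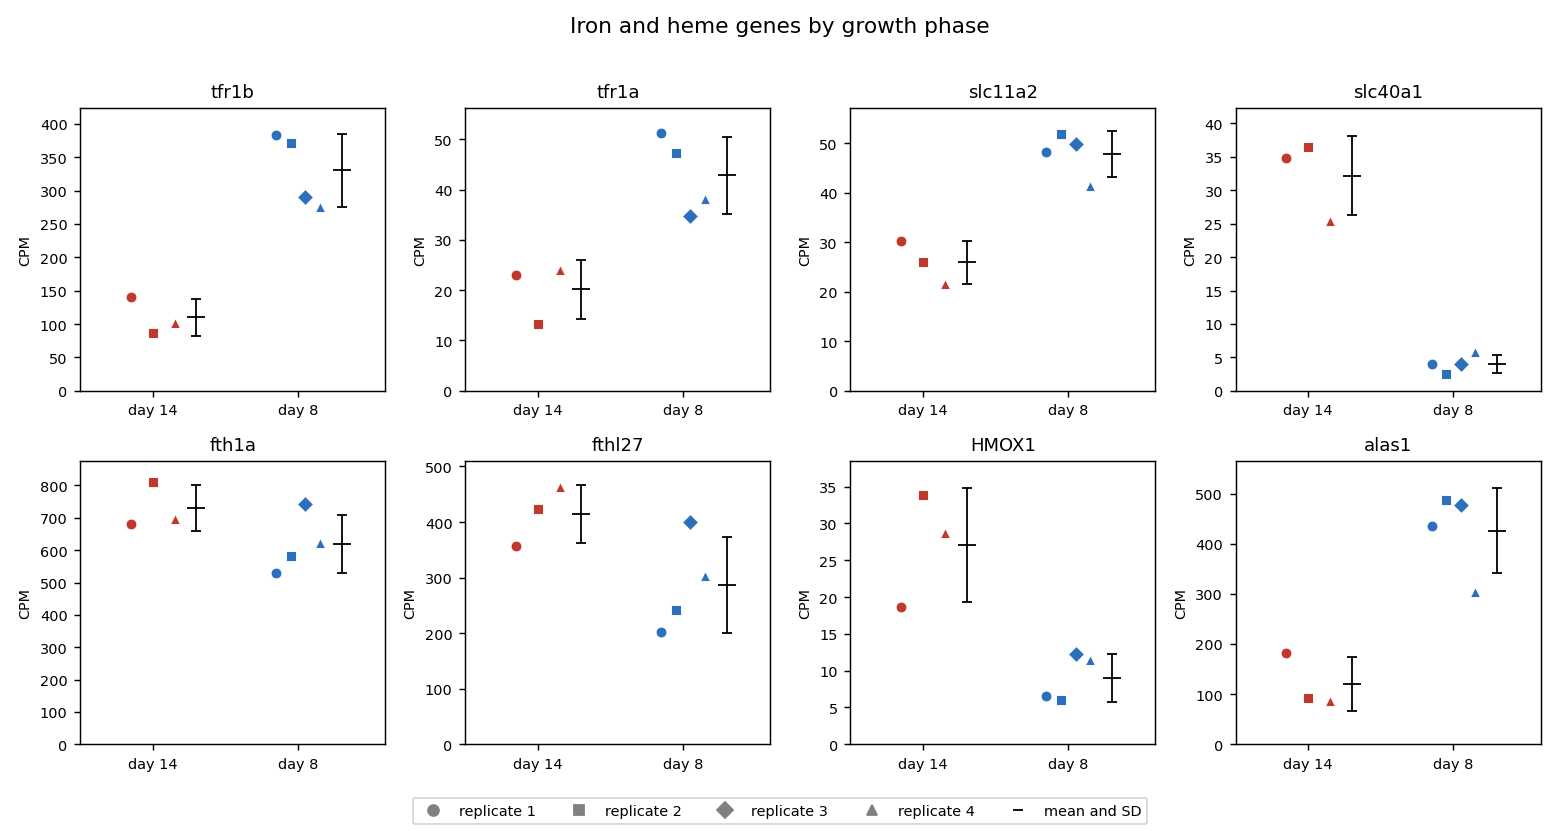
CPM (y axis, from 0) of 8 iron and heme genes in each day 14 library (left) and day 8 library (right), with mean and SD. tfr1b, tfr1a, slc11a2 and alas1 lie lower on day 14 without overlap, slc40a1 and HMOX1 higher without overlap, and the ferritin genes fth1a and fthl27 overlap through day 8 replicate 3.

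Levels by library, taken as the median over the members of a class of log2(CPM + 1) relative to the day 8 mean of each gene, show which classes separated the days as a whole. UGTs stood at 0.39, 0.52 and 0.51 in day 14 replicates 1, 2 and 4, against -0.05, 0.00, 0.10 and 0.06 in day 8 replicates 1 to 4, with no overlap. The level of the 2 epoxide hydrolases did not overlap either, at 0.10, 0.35 and 0.22 on day 14 and -0.01, 0.06, -0.00 and -0.05 on day 8. It is the median of only 2 genes, neither of them called, and EPHX1 by itself overlapped. For GSTs the values were 0.22, 0.47 and 0.45 on day 14 and -0.38, -0.13, 0.35 and 0.21 on day 8, so that day 8 replicate 3 lay above day 14 replicate 1. The same library exceeded every day 14 library for iron genes (0.34, against 0.28, 0.32 and 0.27 on day 14). It did so as well for glutathione synthesis, recycling and peroxidases (0.34, against 0.12, 0.12 and 0.13). The same was found for peroxiredoxins and thioredoxins (0.45, against -0.21, -0.01 and 0.07) and for superoxide dismutases and catalase (0.45, against -0.08, 0.17 and 0.38). Replicate 1 was the lowest library of day 8 for each of the classes named here except the epoxide hydrolases. Day 8 replicate 3 has no day 14 partner, and without it 29 members were called higher and 10 lower (2317 and 2337 of all genes). The part of replicate or of culture start in these levels was not tested beyond the block.

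**Figure D5:**
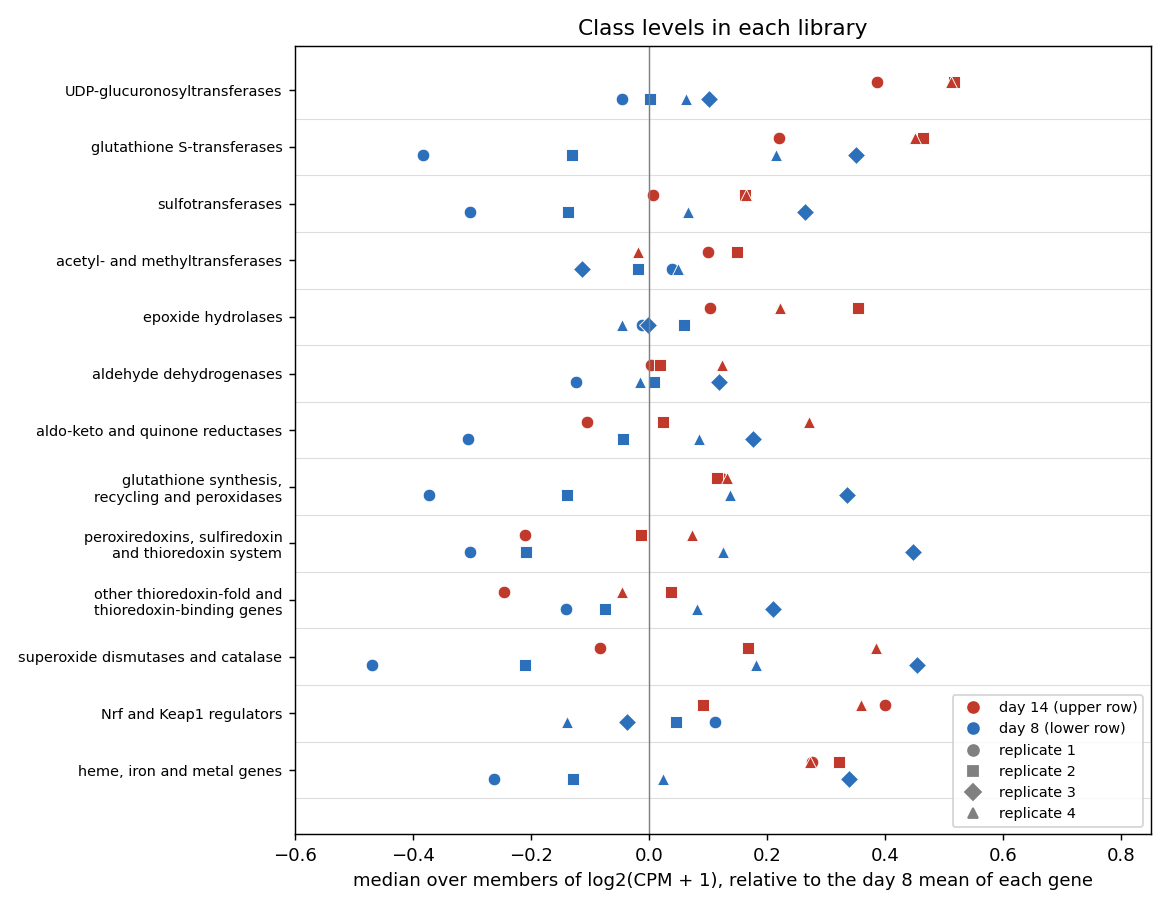
Class level of each library (x axis, median over members of log2(CPM + 1) relative to the day 8 mean of each gene), with day 14 in the upper and day 8 in the lower row of each class and replicates by marker shape. UGTs and epoxide hydrolases separate the days, while in the glutathione, peroxiredoxin and superoxide classes day 8 replicate 3 lies among or above the day 14 libraries.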

How the data were processed

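RNA of 7 PAC2 libraries was sequenced by the authors, who quantified reads with kallisto on Ensembl transcripts of GRCz11, summed transcripts to genes and filtered low genes with edgeR 4.6.2. The deposited values are estimated counts (titled normalized, but their totals differ), which were rounded here. Reads of similar copies are divided by estimation, so single members of such families are uncertain. Gene names came from a table that pairs Ensembl identifiers with names (15073 of 17570 matched). Names in capitals are that table's.

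Day 14 and day 8 were compared with edgeR 4.0.16 in R 4.3.3 (TMM, estimateDisp, glmQLFit with robust estimation, glmQLFTest, growth phase as the only term, Benjamini-Hochberg over all genes, called at adjusted p below 0.05). The standard error is the absolute log2 difference over the root of F. limma 3.58.1 and DESeq2 1.42.0 were used in alternatives, and fits were tested on simulated data. Other alternatives were scaling, low-count filters, the newer quasi-likelihood form, a replicate block and omission of each library. Figures used Python 3.11.15 and matplotlib 3.10.9.

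Members, classes and lists were chosen with earlier results of these data known. Named genes were tfr1b and all heme oxygenase, Nrf, Keap1, glutathione synthesis, NQO1, SRXN1, CAT, SOD and FTH1 members, up to 4 called members per class with the largest differences among those of at least 5 CPM, the most abundant member per class, and copies called in opposite directions. Per the labels, replicates were separate passages with separate starting days. Run numbers were taken to mark these, and so to pair the samples. Deviations from the day means correlated by 0.302, -0.121 and 0.376 in replicates 1, 2 and 4, and by -0.329 to 0.339 between different numbers. The closest library pair had a chi-square per degree of freedom of 14.1, where sampling noise alone gives about 1, so all 7 were kept. Depth limits genes of few counts, and the bound for ugt1b1 covers counting error only. Sequences and coordinates were not used here. Results of 1 gene are not reported here, although it is included in the counts.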

Additional observations from a re-analysis of the deposited data

Results flagged for a closer look

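In 2 named genes, 1 of the 4 day 8 libraries stood apart from the other 3 by Dixon's criterion, among 52 named genes and 14 class levels examined, of which chance gives about 1 in 20. GCLM had 66.0 CPM in day 8 replicate 1, against 84.7 to 88.3 CPM in the other day 8 libraries, still above the 46.0 to 50.6 CPM of day 14. ugt5c3 had 85.8 CPM in day 8 replicate 4, against 68.4 to 71.3 CPM in the others, which lies above the 79.4 CPM of day 14 replicate 1. Groups of 3 libraries were not examined.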

How the results depend on the processing

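Of 52 named genes, 29 were called, and 15 of these kept their call in all 18 alternatives. None of the 29 changed direction in any alternative, and 8 of the uncalled genes were called in at least 1. Over all genes, 2647 to 4681 were called with 1 library left out, against 4445. Members called higher numbered 14 without scaling factors, 41 with the replicate block and 12 to 29 with 1 library left out, and those called lower 8 to 13. Class medians of log2 differences also moved. That of UGTs was 0.49 without scaling factors, 0.73 with upper quartile scaling, 0.54 among genes above 1 CPM, 0.43 and 0.54 with limma on log2(CPM + 1) and log2(CPM + 0.25), 0.78 with the replicate block and 0.55 to 0.78 with 1 library left out. Without scaling factors the medians were -0.19 for acetyl- and methyltransferases, 0.054 for epoxide hydrolases, -0.16 for aldehyde dehydrogenases, -0.29 for other thioredoxin-fold genes and -0.084 for Nrf and Keap1 regulators (0.41 among genes above 5 CPM). With the replicate block they were 0.17 for acetyl- and methyltransferases, 0.096 for aldehyde dehydrogenases, 0.050 for other thioredoxin-fold genes and 0.63 for iron genes. With 1 library left out they ranged from -0.022 to 0.17, 0.016 to 0.098, -0.22 to 0.045 and 0.21 to 0.62 for these 4 classes and from 5.67e-04 to 0.26 for Nrf and Keap1 regulators.

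Uncalled genes near 0 changed sign. Without scaling factors this gave FTH1 -0.11, NQO1 -0.013, GCLC -0.10, GSR -0.015, GSS -0.083, SOD2 -0.077, SOD1 -0.013, KEAP1 -0.084, GPX4 -0.064 and CAT -0.077. With upper quartile scaling nfe2l3 was at 0.029 and NFE2L1 at 0.055, and among genes above 5 CPM nfe2l3 was at 0.0039. With 1 library left out, log2 differences ranged from -0.063 to 0.18 for FTH1, -0.023 to 0.30 for NQO1, -0.015 to 0.21 for GCLC, -0.13 to 0.014 for nfe2l3, -0.31 to 0.17 for NFE2L1, -0.15 to 0.28 for SOD2, -0.0018 to 0.38 for SOD1, -0.11 to 0.26 for KEAP1 and -0.035 to 0.30 for GPX4. The shift without scaling factors follows that of all genes (median -0.17). For the other changes the cause was not tested. Depth limits genes of few counts, such as ugt1b1 and TXNRD2 (ENSDARG00000094470).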
